A study of Mus musculus with 2 samples.

Results

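Krtdap, Sbsn and Dmkn are neighbouring genes known as markers of suprabasal keratinocytes (KCs), and they were followed together with Asprv1, Calm4, Fam25c, Them5, Endou, Lgals3 and Lgals7 from basal to granular KCs and into the other cell types of neonatal mouse epidermis. The genes were chosen by symbol, and 10 of 10 symbols were found among the 27998 genes listed in both count matrices. The study profiled epidermal cells by droplet single-cell RNA sequencing from the skin of 2 male C57BL/6J mice at postnatal day 0, with 1 library per mouse. Both mice were labelled Chrm3 KO, Chrm3 being the gene for an acetylcholine receptor of the muscarinic type, so every value below is a level within KO epidermis and no genotype was compared. Wild-type libraries were not analysed here. The epidermis was lifted off the dermis after incubation overnight, and dead cells were depleted from the suspension before droplets were made.

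In stratified epidermis, KCs are born in the basal layer on the basement membrane, leave it, pass through the spinous layer and die in the granular layer to form the cornified barrier. Krtdap (keratinocyte differentiation-associated protein), Sbsn (suprabasin) and Dmkn (dermokine) encode secreted proteins of the upper layers and lie side by side on chromosome 7. The other members are not all secreted proteins. Asprv1 is an aspartic protease that acts on profilaggrin in granular KCs, Calm4 is a calmodulin-like protein of the cytoplasm, Them5 is a mitochondrial acyl-CoA thioesterase, and Endou is an endoribonuclease with a signal peptide. Lgals3 and Lgals7 are galectins, sugar-binding proteins that lack a signal peptide and leave cells by another route. No role is given here for Fam25c.

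In build GRCm38, Sbsn (chr7:30751471-30756134), Dmkn (chr7:30763756-30781063) and Krtdap (chr7:30787896-30791097) are all on the plus strand. Lgals7 lies on the same chromosome (chr7:28863853-28866284, plus strand). The remaining genes are at chr13:3837757-3838673 (Calm4, plus strand), chr14:34351881-34355433 (Fam25c, minus strand), chr14:47367751-47386160 (Lgals3, plus strand), chr15:97711015-97731339 (Endou, minus strand), chr3:94342099-94347352 (Them5, plus strand) and chr6:86628164-86629710 (Asprv1, plus strand). Calm4 overlaps Gm40655 and Sbsn overlaps Tmem147os on the same strand, so reads there may be split, while Lgals7 overlaps Gm10648 on the opposite strand.

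The promoter sequences are shown because the 3 neighbouring genes shared a short motif. RefSeq promoters (GRCm38.p6) were available for 9 of the 10 genes in 11 entries, and Endou had none. In the recognition motif of the AP-1 family of transcription factors, TGANTCA, the base N is mostly C or G. The letters were searched with any base at N. They were found within 250 bases before the start in 4 genes, namely Sbsn, Dmkn, Krtdap and Fam25c, and in 6 of the 11 entries. The Dmkn entries with starts at chr7:30763756 and chr7:30763758 overlap and hold the same match, which was counted for each. Of 32851 promoter windows of this length, 6.75% held the motif on either strand. The stretches run 5′ to 3′ on the strand of the gene, from 130 to 21 bases before the start, with the motif in capitals.
Sbsn, chr7:30751341-30751450, plus strand: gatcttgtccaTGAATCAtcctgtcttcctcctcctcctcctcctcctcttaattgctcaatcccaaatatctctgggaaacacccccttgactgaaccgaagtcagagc
Dmkn, upstream start, chr7:30763626-30763735, plus strand: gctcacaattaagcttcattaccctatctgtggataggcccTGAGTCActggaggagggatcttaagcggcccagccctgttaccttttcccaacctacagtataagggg
Dmkn, downstream start, chr7:30776275-30776384, plus strand: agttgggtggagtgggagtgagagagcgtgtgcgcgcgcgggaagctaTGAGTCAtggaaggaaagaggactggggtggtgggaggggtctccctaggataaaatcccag
Krtdap, chr7:30787775-30787884, plus strand: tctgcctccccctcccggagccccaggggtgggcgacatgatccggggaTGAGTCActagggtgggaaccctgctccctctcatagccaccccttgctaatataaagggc
Fam25c, chr14:34355414-34355523, minus strand: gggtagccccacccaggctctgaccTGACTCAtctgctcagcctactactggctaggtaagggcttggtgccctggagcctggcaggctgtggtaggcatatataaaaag

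The match began 119 bases before the start in Sbsn, 89 and 82 bases before the upstream and downstream starts of Dmkn, 81 bases before the start of Krtdap and 105 bases before that of Fam25c. The base at N was A in Sbsn, G in Dmkn and Krtdap and C in Fam25c. Across the 8 motifs searched on both strands, CCACCC (KLF family) was in 6 members and 28.1% of all windows, TATAAA was in Krtdap and Fam25c and in 12.4% of windows, and TTNNGNAA (C/EBP family, loose) was in 4 members and 36.9% of windows. The letters AACNGGTT (GRHL family), TTGCGCAA (C/EBP palindrome, contained in the loose form), CCGTTA (OVOL family) and the longer motif searched for p63 were in no member, and were in 1.79%, 0.164%, 2.18% and 0.490% of windows. Sbsn, Dmkn and Krtdap also shared CCACCC and TTNNGNAA. A match is a string of letters and does not show that a factor is bound.

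After the filter on genes per cell and mitochondrial reads, 7607 and 11881 cells were kept from KO mouse 1 and KO mouse 2, with median depths of 10480 and 10577 UMIs (unique molecular identifiers, each counting 1 captured RNA molecule). Cells were grouped into 23 clusters with the 10 genes kept out of the clustering and the naming, and clusters were named from marker genes, so a class is "like" its namesake only in those markers. The stages of the interfollicular epidermis (IFE) held 5901 basal-like, 1710 dividing basal-like, 1150 transition-like, 164 differentiated-like and 108 terminally differentiated-like cells over both mice. In the kept cells Chrm3 itself had 13 and 19 UMIs, and since reads mark the 3′ end of a transcript, which may lie outside the deleted part, this did not check the KO. The libraries shared 34 barcode sequences among kept cells. Scrublet called 2.16% and 4.21% of cells doublets. Terminally differentiated-like cells were mixed in their markers: basal markers summed to 11423 and 12765 CPM (UMIs of a gene per 1000000 UMIs of the class) in mouse 1 and mouse 2, against 1369.5 and 1833 CPM in differentiated-like and 29459 and 28456 CPM in basal-like cells. Their hair follicle markers were at 2550 and 2247 CPM and their melanocyte markers at 238 and 301 CPM.

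All 10 genes were higher in differentiated-like than in basal-like KCs of both mice, but they did not start from the same floor. Krtdap, the secreted protein named for KC differentiation, was already at 961 and 1449 CPM in basal-like cells of mouse 1 and mouse 2. It rose to 4448 and 5190 CPM in transition-like cells and to 9024 and 10539.5 CPM in differentiated-like cells, and stood at 2343 and 1925 CPM in terminally differentiated-like cells. In mouse 1, 51.5% of the 759 Krtdap UMIs of terminally differentiated-like cells lay in 3 cells. The lowest differentiated-like value was above the highest of any other stage.

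Dmkn, the middle gene of the trio, followed the same course at lower levels. Its basal-like cells held 873 and 995 CPM, its transition-like cells 2705 and 2387 CPM, its differentiated-like cells 5281 and 5055 CPM and its terminally differentiated-like cells 2068 and 1858 CPM. Sbsn, by contrast, was low in basal-like cells (78.5 and 104 CPM) and in transition-like cells (262 and 250.5 CPM) and reached 2703 and 2339.7 CPM in differentiated-like cells. In terminally differentiated-like cells Sbsn was at 1954 and 1325 CPM, but the 3 highest cells held 56.1% and 31.5% of its UMIs there, and 966 and 1010.4 CPM remained without them. The median terminally differentiated-like cell had 3 and 5 Sbsn UMIs, against 50 and 52 in differentiated-like cells. These counts are not scaled to depth. The median depth was 5285 and 9131 UMIs in terminally differentiated-like cells, against 28957 and 28248.5 UMIs in differentiated-like cells. Thus, as a fold, Krtdap had its larger step into transition-like cells and Sbsn into differentiated-like cells.

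Of the galectins, Lgals7 was the most abundant member in every stage but the terminally differentiated-like one. It held 5617 and 5885 CPM in basal-like, 9263 and 9178 CPM in transition-like, 13934 and 14468 CPM in differentiated-like and 3547 and 3804 CPM in terminally differentiated-like cells. Lgals3 went from 239 and 264 CPM in basal-like to 2326 and 2036 CPM in transition-like and 4167 and 3569.8 CPM in differentiated-like cells, and was at 389 and 265 CPM in terminally differentiated-like cells. The last of these values was almost equal to the basal-like one in mouse 2 and above it in mouse 1.

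The calmodulin-like Calm4 was at 308 and 365 CPM in basal-like, 2550.1 and 2235 CPM in transition-like, 11208 and 9326 CPM in differentiated-like and 4603 and 4542 CPM in terminally differentiated-like cells. Asprv1 was at 32.1 and 44.0 CPM in basal-like and 58.3 and 57.6 CPM in transition-like cells, then at 1233 and 879.9 CPM in differentiated-like and 4597 and 2333 CPM in terminally differentiated-like cells. Of the Asprv1 UMIs of terminally differentiated-like cells, 70.9% and 44.7% lay in 3 cells of each mouse. Without the 3 highest cells of a stage Asprv1 was at 1504 and 1382 CPM there and at 916 and 658 CPM in differentiated-like cells. The summed level thus stayed higher in the last stage. The median cell had 4 and 5 UMIs against 14.5 and 9, counts that are not scaled to the lower depth of the last stage. Fam25c had summed levels of 1689 and 2469 CPM in terminally differentiated-like cells, against 1053 and 1285 CPM in differentiated-like, 198 and 259 CPM in transition-like and 15.8 and 31.0 CPM in basal-like cells. Here too 58.7% and 55.4% of the UMIs of the last stage lay in 3 cells. Without the 3 highest cells of a stage, terminally differentiated-like cells held 785 and 1173 CPM of Fam25c and differentiated-like cells 983 and 1134 CPM. Which of these stages was higher thus differed between the mice. The median cell had 3 UMIs in each mouse against 26.5 and 30.5, again not scaled to depth.

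Them5 was the rarest member in basal-like cells, at 3.12 and 5.66 CPM, with 67 and 216 UMIs behind these values. It rose to 152 and 123 CPM in transition-like and 511 and 502 CPM in differentiated-like cells, and held 117 and 104 CPM in terminally differentiated-like cells. Endou held 71.2 and 68.9 CPM, 349.5 and 302 CPM, 725 and 689 CPM and 105 and 101 CPM in the same order of stages. The last pair rested on the fewest UMIs of any member and stage in mouse 1, 34, with an exact 95% Poisson interval of 72.7 to 147 CPM that covers counting error only.

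**Figure D1:**
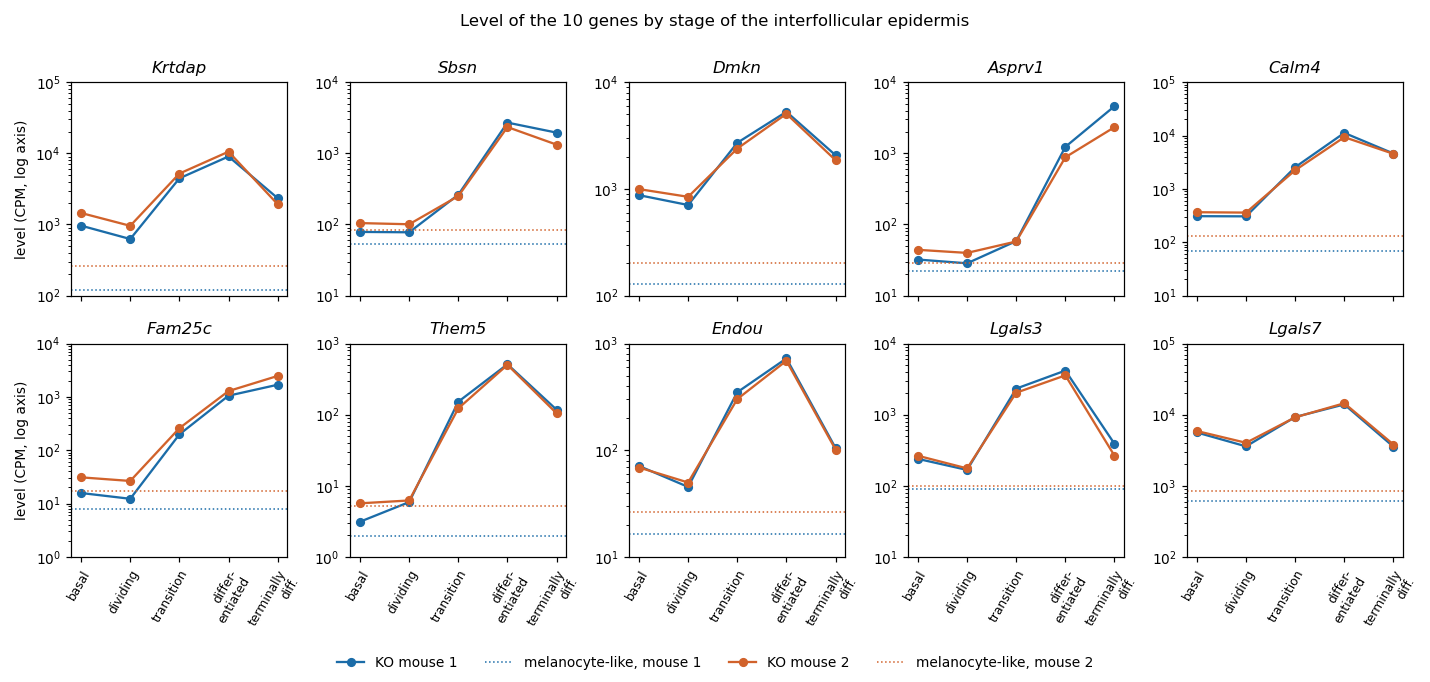
Level of each gene (CPM, log axis) in the basal, dividing basal, transition, differentiated and terminally differentiated-like stages, with 1 point per KO mouse and dotted lines at the level in melanocyte-like cells of the same mouse. The summed levels of Asprv1 and Fam25c are highest in the last stage (4597 and 2333 CPM for Asprv1), where 44.7% to 70.9% of their UMIs lay in 3 cells of each mouse, while Krtdap, Dmkn, Endou, Them5, Calm4, Sbsn and both galectins peak in differentiated-like cells.

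Which of these steps exceeded the spread between mice was tested on counts summed per mouse and stage with edgeR's quasi-likelihood test, Benjamini-Hochberg adjusted over 12219 genes in 1 fit of 10 sums. Fold changes are on the scale of that fit, whose TMM scaling differs from plain CPM, and p-values measure the spread between 2 mice. Cells were clustered on other genes of the same libraries, so the stages were themselves defined by gene expression in these cells. From basal-like to transition-like cells 10 of 10 members rose (19.7% of all genes tested were called higher), and their median log2 fold change was 2.25 against -0.01 over all genes. The change was largest for Them5 (5.04 ± 0.20, log2 ± SE) and Fam25c (3.41 ± 0.34), followed by Lgals3 (3.25 ± 0.14) and Calm4 (2.97 ± 0.15). Endou (2.36 ± 0.10) and Krtdap (2.14 ± 0.21, adjusted p = 5.3e-06) rose more than Sbsn (1.62 ± 0.18, adjusted p = 1.1e-05) and Dmkn (1.59 ± 0.12, adjusted p = 4.7e-07) by point estimate, a difference between genes that was not tested. Lgals7 rose by 0.82 ± 0.11. The smallest change was that of Asprv1 (0.74 ± 0.26, adjusted p = 0.0390), and its call was lost with DESeq2 (adjusted p = 0.0624), at a clustering resolution of 1.2 (0.63, adjusted p = 0.10) and in cells under 5% mitochondrial UMIs (0.55, adjusted p = 0.180).

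From transition-like to differentiated-like cells 10 of 10 members again rose, where 18.7% of all genes tested were called higher. The members' median was 1.72 on the log2 scale against -0.10 over all genes. Asprv1 (4.41 ± 0.29) and Sbsn (3.52 ± 0.19, adjusted p = 2.4e-08) had the largest steps here. Fam25c (2.57 ± 0.33), Calm4 (2.32 ± 0.14) and Them5 (2.11 ± 0.16) followed. Krtdap (1.24 ± 0.21, adjusted p = 0.000473), Dmkn (1.24 ± 0.12), Endou (1.34 ± 0.10), Lgals3 (1.05 ± 0.13) and Lgals7 (0.84 ± 0.11) rose by less.

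Between differentiated-like and terminally differentiated-like cells the order turned. Of the 10 members 8 fell, where 17.5% of all genes tested were called lower, and 1 rose, where 17.7% were called higher. The members' median was -2.12 on the log2 scale against 0.04 over all genes. Lgals3 fell by 4.05 ± 0.16, Endou fell by 3.21, Krtdap fell by 2.65 ± 0.22, Them5 fell by 2.64, Lgals7 fell by 2.39, Dmkn fell by 1.84 and Calm4 fell by 1.61. Sbsn fell by 1.09 ± 0.18 (adjusted p = 0.000421), and at a clustering resolution of 1.2 it was at -0.47 (adjusted p = 0.0566). The protease gene Asprv1 rose by 1.24 ± 0.25 (adjusted p = 0.00203). Fam25c was at 0.41 ± 0.32 (adjusted p = 0.343). It passed with the mouse as a block (0.36, adjusted p = 0.0391), without the filter on low counts (0.46, adjusted p = 0.000322) and at a clustering resolution of 1.2 (0.89, adjusted p = 0.0356). The part of the mixed markers of terminally differentiated-like cells in these steps was not tested.

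Dividing basal-like cells, summed over 2 clusters that differed in their dividing markers, carried less of 4 members than basal-like cells. Krtdap was at 623 and 956 CPM in dividing basal-like cells, below the basal-like level of the same mouse, and Lgals7 at 3582 and 4022 CPM, below both basal-like values. Lgals3 stood at 167 and 176 CPM and Endou at 45.3 and 49.8 CPM. Together these 4 members fell, where 8.49% of all genes tested were called lower, and 0 members rose, where 11.7% were called higher (0 also at an unadjusted p under 0.05 and with DESeq2). Krtdap fell by 0.68 (adjusted p = 0.0357), Lgals7 fell by 0.67 (adjusted p = 0.000682), Lgals3 fell by 0.63 (adjusted p = 0.00514) and Endou fell by 0.63 (adjusted p = 0.000996). In cells under 5% mitochondrial UMIs Endou (-0.46, adjusted p = 0.120) and Lgals3 (-0.40, adjusted p = 0.283) no longer passed. Dmkn was at -0.34 (adjusted p = 0.0581), and it passed with the mouse as a block (-0.34, adjusted p = 0.00748). It also passed with DESeq2 (adjusted p = 0.0404), with DESeq2 size factors (adjusted p = 0.0461) and without the filter on low counts (adjusted p = 0.00487). At resolutions 0.4 (-0.71, adjusted p = 0.00277) and 1.2 (-0.42, adjusted p = 0.0128) Dmkn passed too. Calm4 went from -0.09 to -1.02 at resolution 0.4 (adjusted p = 0.00206), and Fam25c passed without the filter (-0.33, adjusted p = 0.0470). The members' median was -0.33 against -0.01 over all genes. The decrease was not alike in the 2 clusters. The cluster of 928 cells led by Cdc20 and Cenpa was named dividing from these 2 leading genes. Only 8 of its 20 dividing markers were enriched, with a mean log2 enrichment of -0.032. That of basal markers was 0.119 and that of hair follicle markers -0.067, so both parts of its name are weakly supported. It held 381 and 702 CPM of Krtdap, 30.4 and 41.0 CPM of Endou and 106 and 141 CPM of Lgals3. In the other cluster 17 dividing markers were enriched, with a mean of 1.14. It held 833 and 1124 CPM of Krtdap, 58.1 and 55.6 CPM of Endou and 219 and 198 CPM of Lgals3. These values were all within the range of the basal-like clusters of the same mouse. Lgals7 was below every basal-like cluster in both, at 2915 and 3551 CPM and at 4157 and 4333 CPM. Basal markers summed to 20375 and 21199 CPM in dividing basal-like cells, and their part in the decrease was not tested.

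Basal-like cells formed 4 clusters, which differed in the early members. In the cluster led by Ccl27a and Pou3f1, Krtdap was at 1663 and 2280.2 CPM, against 700–827 CPM in mouse 1 and 1065–1391 CPM in mouse 2 in the other clusters. In the cluster led by the imprinted transcript H19, Lgals3 was at 485 and 523 CPM, against 133–213 CPM and 169–247 CPM in the others, and Lgals7 was at 7025 and 7466 CPM. These are descriptions with no test.

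To place the onset on a continuous scale, IFE cells were ordered by keratin share, the share of the suprabasal keratins Krt1 and Krt10 in the UMIs of Krt1, Krt10, Krt5 and Krt14. Only cells named as IFE stages were ordered, and these keratins were also naming markers, so the scale is not independent of the stages. The onset of a gene was the lowest of 10 bins in which its CPM passed 50% of its highest bin. Of 9033 IFE cells, 8988 had the 20 keratin UMIs needed, and 1089 of them lay within 0.01 of a bin edge. All 10 genes were highest in the last bin in both mice. Krtdap passed 50% from a share of 0.4 in mouse 1 and 0.5 in mouse 2, Lgals7 at the same shares, Lgals3 at 0.5 in both, and Dmkn at 0.4 and 0.6. Krtdap in mouse 1 went from 1017 CPM in the lowest bin to 2212 CPM in the fourth bin, 4183 CPM in the fifth and 7477 CPM in the last. In mouse 2 it went from 1508 to 4452 CPM in the sixth bin and 8670.2 CPM in the last. Lgals7 was already at 5574 of 12381 CPM in the lowest bin of mouse 1, close to the limit. The early genes passed the limit while basal keratins still made up about as many keratin UMIs as suprabasal ones.

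A later group passed 50% only near the top of the keratin share. Calm4 and Them5 did so from a share of 0.9 in both mice, and Sbsn and Fam25c from 0.9 in mouse 1 and 0.8 in mouse 2. Thus 4 of 10 members had an onset at 0.8 or above in both mice, and 1 of 10, Sbsn, did so when 25% of the highest bin counted as onset. This onset is relative to the highest bin and does not mark the first rise. From basal-like to transition-like cells, Them5, Fam25c and Calm4 rose by 5.04, 3.41 and 2.97 on the log2 scale. Sbsn rose by 1.62 there, and the earlier Krtdap and Dmkn by 2.14 and 1.59. Endou (0.4 and 0.7) and Asprv1 (0.4 and 0.8) differed between mice. The mouse 1 value of Asprv1 rested on 1 bin of 33 cells, of which 6.06% were terminally differentiated-like, where it stood at 672 CPM beside 48 and 79 CPM in the neighbouring bins. Dmkn and Endou of mouse 1 also first passed 50% in that bin and were below it in the next, and the seventh bin of mouse 1, with 18 cells, was not used. Without terminally differentiated-like cells, Asprv1, Sbsn and Fam25c had their onset at 0.9 in both mice. The median keratin share was 0.0452 and 0.0777 in basal-like, 0.563 and 0.415 in transition-like, 0.998 and 0.997 in differentiated-like and 0.839 and 0.587 in terminally differentiated-like cells, so the last class does not sit at the end of this axis.

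**Figure D2:**
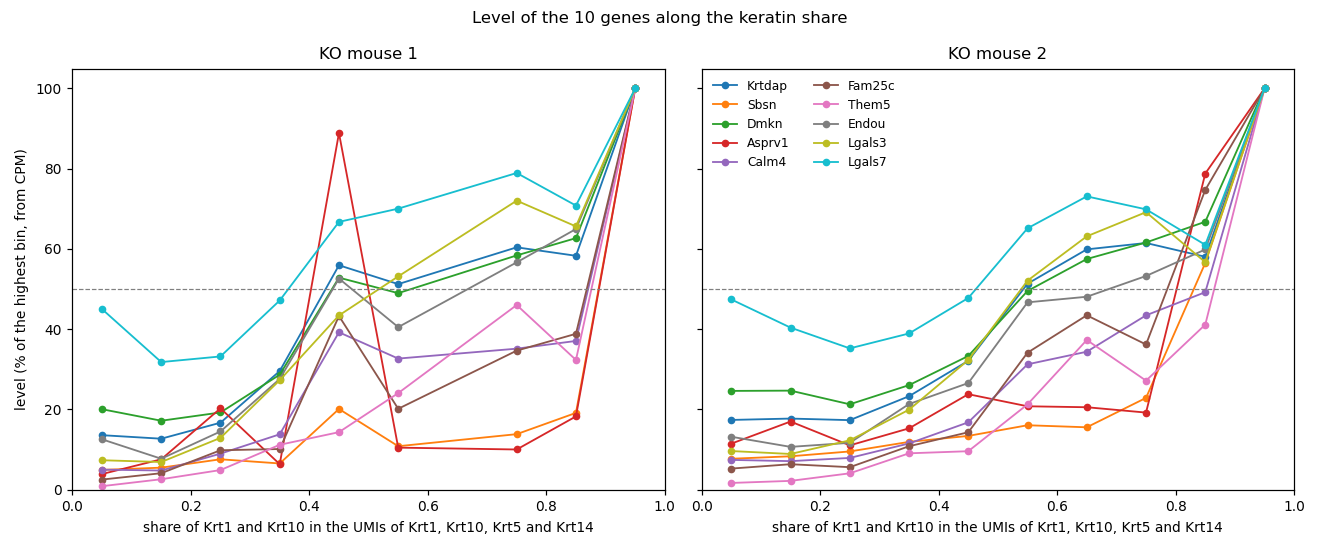
Level of each gene, as a percent of its highest bin, against the keratin share (from 0 to 1) in KO mouse 1 and KO mouse 2, for bins of 20 cells or more, with a dashed line at 50%. Krtdap, Dmkn and the galectins cross the line near the middle of the axis, Calm4 and Them5 from 0.9 in both mice, and the single high point of Asprv1 in mouse 1 (672 CPM) is the bin of 33 cells.

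In cells thinned to 3000 UMIs, which removes depth from the comparison, Krtdap had a UMI in 80.7% and 90.2% of basal-like cells of mouse 1 and mouse 2, Dmkn in 88.2% and 91.4%, and Lgals7 in nearly all. Cells under 3000 UMIs were left out, which kept 2125 of 2134 and 3689 of 3767 basal-like, 424 of 437 and 716 of 727 melanocyte-like, and 27 of 47 and 47 of 61 terminally differentiated-like cells. Unthinned, Krtdap was seen in 94.4% and 98.0% of basal-like cells, with exact binomial 95% intervals of 93.4% to 95.4% and 97.5% to 98.4%. Free RNA in the droplets can give UMIs to cells that do not express a gene, so melanocyte-like cells, which are not KCs, were read in the same way. At 3000 UMIs they had Krtdap in 21.3% and 41.7%, Dmkn in 25.4% and 40.1% and Lgals7 in 50% and 70.6% of cells. On the CPM scale, basal-like cells held more than melanocyte-like cells by 7.93-fold for Lgals7, 6.35-fold for Krtdap, 5.64-fold for Dmkn, 3.39-fold for Calm4, 3.28-fold for Endou and 2.68-fold for Lgals3. Krtdap, Dmkn and Lgals7 were thus well above the melanocyte-like level in basal-like KCs of these KO mice, by folds that were not tested. The part of free RNA in these levels was not tested either.

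The others were closer to the melanocyte-like level in basal-like cells, at 1.87-fold for Fam25c, 1.5-fold for Asprv1, 1.35-fold for Sbsn and 1.22-fold for Them5. Sbsn was in 21.6% and 27.5% of thinned basal-like cells against 15.5% and 24.5% of melanocyte-like cells, and Asprv1 in 9.50% and 12.9% against 7.11% and 9.57%. These shares were little above those of melanocyte-like cells. In thinned transition-like cells Krtdap was in 99.6% and 99.9%, Sbsn in 42.6% and 43.2%, Fam25c in 37.1% and 44.3%, Them5 in 24.1% and 20.7% and Asprv1 in 14.6% and 15.4%. In differentiated-like cells Sbsn reached 92.8% and 95.2%, Them5 74.3% and 73.0% and Asprv1 70.0% and 61.2%, and Asprv1 was in 82.0% and 72.1% of terminally differentiated-like cells.

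Differentiated-like cells were 1.05% and 0.707% of all kept cells. They were deeper than most, with median depths of 28957 and 28248.5 UMIs against 10480 and 10577. Of the UMIs of all genes they held 2647625 of 95048258 in mouse 1 and 2855915 of 148843409 in mouse 2. They held 48.0% and 39.6% of all Them5 UMIs and 45.7% and 30.8% of those of Fam25c. Their shares were 34.9% and 23.6% for Asprv1 and 32.2% and 23.3% for Sbsn. Krtdap was spread wider, with 22.9% and 15.1% of its UMIs in differentiated-like, 32.0% and 28.2% in transition-like and 19.8% and 27.7% in basal-like cells. Lgals7 had 9.28% and 6.46% of its UMIs in differentiated-like and 30.3% and 35.1% in basal-like cells.

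Outside the IFE stages, the 10 genes were compared with melanocyte-like cells in a separate fit of 20 sums and 13326 genes. The melanocyte-like class had 1164 cells, of which 268 formed a cluster with 44.0% called doublets. Its levels were 121 and 258 CPM for Krtdap, 53.4 and 82.2 CPM for Sbsn, 129 and 202 CPM for Dmkn, 603 and 847 CPM for Lgals7 and 89.7 and 97.8 CPM for Lgals3. Krtdap there was higher in mouse 2 than in mouse 1, as it was in basal-like cells.

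Upper follicle-like cells, KCs at the mouth of the follicle, were the class outside the IFE stages in which every member passed: 10 of 10 rose, where 25.5% of all genes tested were called higher and 28.9% lower, with a median of 2.95 on the log2 scale against -0.04 over all genes. Dmkn (1869.6 and 1905 CPM, log2 fold change 3.49) and Krtdap (1647 and 2545 CPM, 3.45 ± 0.53) led, and Sbsn was at 433 CPM in each mouse (2.65). Calm4 was at 1005 and 1121 CPM, Asprv1 at 241 and 177 CPM and Lgals7 at 6709 and 6919 CPM. Them5 changed least, with 7.97 and 17.6 CPM (1.69, adjusted p = 0.00269), and its call was lost at a clustering resolution of 0.4 (0.82, adjusted p = 0.178).

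Sebaceous-like cells, the lipid-producing cells of the sebaceous gland, carried the chromosome 7 trio in another order. Sbsn led the changes with 1679.8 and 981 CPM, above every transition-like value, while Dmkn was at 1614 and 1291 CPM and Krtdap at 841 and 1145 CPM. Of 10 members 6 rose, where 24.1% of all genes tested were called higher and 26.9% lower, with a median of 1.42 against -0.05 over all genes. Sbsn rose by 4.49 ± 0.26 on the log2 scale (adjusted p = 2.3e-13), with 3.67 without mouse 1 and 5.15 without mouse 2. Dmkn rose by 3.34, Krtdap by 2.58 ± 0.51 and Lgals7 (2674 and 3105 CPM) by 2.20. The 3 highest cells held 37.6% and 27.3% of the Sbsn UMIs of this class, and without them Sbsn was at 1164 and 754 CPM. Sbsn was seen in 56.2% and 50.4% of sebaceous-like cells thinned to 3000 UMIs. Apart from Sbsn, the members of late onset were low there. Calm4 was at 63.7 and 107 CPM, Fam25c at 5.83 and 11.2 CPM and Them5 at 0.898 and 1.98 CPM.

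The call of Asprv1 in sebaceous-like cells (1.92 ± 0.46, adjusted p = 0.00108) rested on mouse 1. It stood at 156 CPM there and at 20.1 CPM in mouse 2, against 21.8 and 29.0 CPM in melanocyte-like cells. Of its 348 UMIs in mouse 1, 93.1% lay in 3 cells, and 12 CPM remained without them. Without mouse 1 the log2 fold change was -0.43, without mouse 2 it was 3.01, and in cells under 5% mitochondrial UMIs it was 0.59 (adjusted p = 0.238). Lgals3 (173 and 135 CPM, 0.93, adjusted p = 0.0228) was not called with DESeq2 (adjusted p = 0.225), at a clustering resolution of 1.2 (0.91, adjusted p = 0.0758) or in cells under 5% mitochondrial UMIs (0.60, adjusted p = 0.172). Endou (6.28 and 12.9 CPM) was at -0.94 (adjusted p = 0.0538), and with the mouse as a block at -0.94 (adjusted p = 0.000823).

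In the 2 classes of the follicle below its mouth that were compared, most members were close to the melanocyte-like level. In hair follicle-like cells 1 member rose, Lgals7 (1547 and 1931 CPM, 1.2, adjusted p = 0.000132), where 22.1% of all genes tested were called higher. Krtdap was at 100.2 and 223 CPM and Dmkn at 195 and 266 CPM there. Lgals3 (29.7 and 69.9 CPM) fell by 0.92 (adjusted p = 0.0257), where 26.6% of all genes tested were called lower. Without mouse 2 it was at -1.64, and it was not called with DESeq2 (adjusted p = 0.229), at a clustering resolution of 1.2 (adjusted p = 0.0682) or without the doublet-rich cluster (-0.83, adjusted p = 0.0504). With the mouse as a block Dmkn (0.42, adjusted p = 0.0234) and Endou (-0.42, adjusted p = 0.0332) passed as well. In inner root sheath and hair shaft-like cells 1 member rose, again Lgals7 (1362 and 1539.5 CPM, 1.04, adjusted p = 0.000563), where 25.1% of all genes tested were called higher. There the block added Krtdap (-0.54, adjusted p = 0.0275), Endou (-0.52, adjusted p = 0.00805) and Lgals3 (-0.73, adjusted p = 0.0103) as lower. The members' medians were 0.03 and 0.17 in these classes, against -0.02 and 0.00 over all genes. Dividing hair follicle-like cells, in no comparison, held 147 and 283 CPM of Krtdap and 270 and 333 CPM of Dmkn. Unnamed clusters were not compared either. In that led by Ncam1 and Apoe, Krtdap was at 474 and 794 CPM and Dmkn at 522 and 616 CPM. In that led by Sfrp1 and Tbx1 they were at 158 and 311 CPM and at 326 and 409 CPM. In that led by Tagln and Foxe1 they were at 74.0 and 160 CPM and at 135 and 183 CPM.

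In the immune cells of the epidermis 1 member stood out, Lgals3, a galectin that macrophages and other leukocytes are known to express. Langerhans-like cells held 1238 and 787 CPM of Lgals3 and T cell-like cells 1663 and 1149 CPM. It rose by 3.81 ± 0.35 (adjusted p = 1.4e-09) in Langerhans-like and by 3.98 ± 0.35 (adjusted p = 2.3e-09) in T cell-like cells. At 3000 UMIs Lgals3 was seen in 78.2% and 79.5% of Langerhans-like and in 95.8% and 87.4% of T cell-like cells. No other member passed in either class, where 22.3% and 13.1% of all genes tested were called higher, and the members' medians were 0.57 and 0.50 against -0.07 and -0.11 over all genes. Krtdap was at 249.9 and 265 CPM in Langerhans-like and 289.9 and 382 CPM in T cell-like cells, and Calm4 was at 139 and 145 CPM in Langerhans-like cells.

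With the mouse as a block, 6 members passed as higher in Langerhans-like cells, Lgals3 and also Krtdap (0.90, adjusted p = 0.000951), Sbsn (0.54, adjusted p = 0.0471), Dmkn (0.58, adjusted p = 0.00593), Calm4 (0.93, adjusted p = 0.000426) and Lgals7 (0.44, adjusted p = 0.00282). In T cell-like cells 3 passed, Lgals3 with Krtdap (0.96, adjusted p = 0.0043) and Lgals7 (0.43, adjusted p = 0.00999). Each of these additions was under 1 on the log2 scale. The share of all genes called with the block is not given here, so these counts are not read as results about the members. Of the Langerhans-like cells 10.4% were called doublets, and without called doublets Krtdap was at 72.9 and 203 CPM against 74.9 and 159 CPM in melanocyte-like cells, and Dmkn at 78.4 and 142 CPM against 83.1 and 150.03 CPM. In 3 of the 52 T cell-like cells of mouse 1 lay 84.6% of the Krtdap and 81.7% of the Lgals7 UMIs, and 52.7 and 135 CPM remained without them. Without the doublet-rich cluster, the comparison with melanocyte-like cells gave Lgals7 1.48 (adjusted p = 2.3e-05) in Langerhans-like and 1.46 (adjusted p = 6.4e-05) in T cell-like cells. In Langerhans-like cells Krtdap (1.39, adjusted p = 0.0307) and Dmkn (0.94, adjusted p = 0.00803) passed there as well. The reference level of these members thus depends on that cluster.

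Merkel-like cells, the touch-sensing cells of the epidermis, numbered 20 and 19. Lgals7 was at 3390.5 and 5056 CPM and rose by 2.29 ± 0.25 (adjusted p = 1.5e-07), the 1 member called, where 7.89% of all genes tested were called higher. The members' median was 0.75 against -0.21 over all genes. Krtdap was at 43.3 and 839 CPM and Calm4 at 54.2 and 642 CPM. In mouse 2, 48.5% of the 132 Krtdap UMIs and 70.3% of the 101 Calm4 UMIs lay in 1 cell. With the mouse as a block Calm4 passed (1.47, adjusted p = 0.000827). Lgals7 had a UMI in nearly all Merkel-like cells of both mice at 3000 UMIs, against 50% and 70.6% of melanocyte-like cells.

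Dermal-like cells, 40 and 69 in number and not KCs, were in no comparison. They held 430.5 and 612 CPM of Krtdap and 1593 and 2099.9 CPM of Lgals7. Of these cells 14.7% were called doublets, and without called doublets the levels were 226 and 298 CPM of Krtdap and 351 and 883 CPM of Lgals7. In melanocyte-like cells without called doublets Lgals7 was at 246 and 433 CPM.

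**Figure D3:**
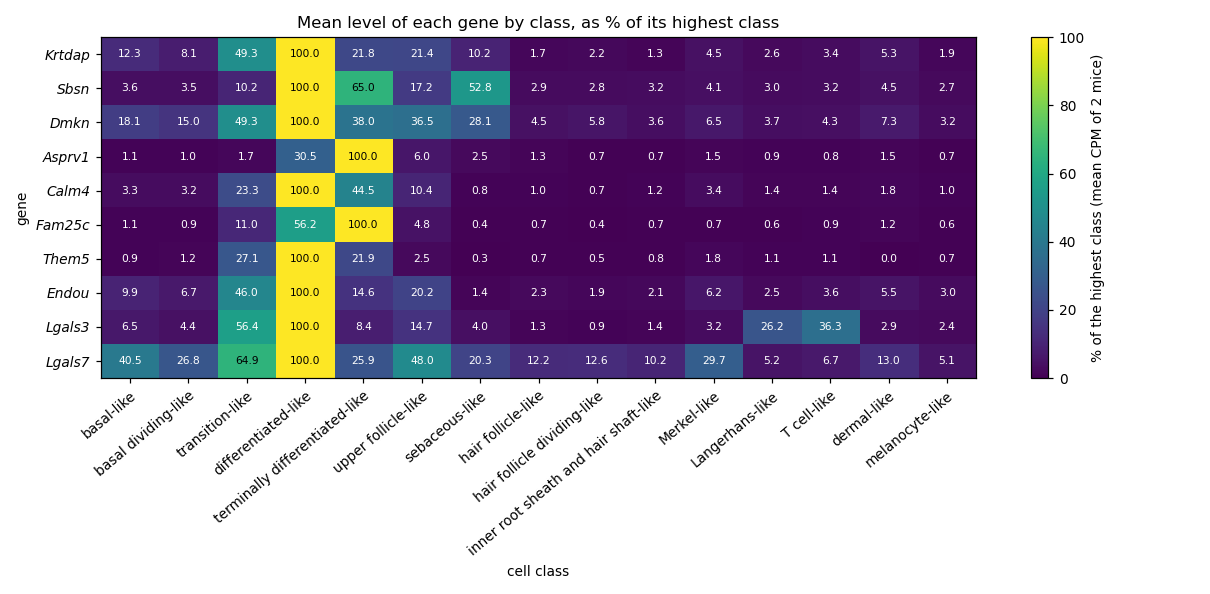
Mean CPM of the 2 KO mice for each gene (row) and cell class (column), as a percent of the class in which that gene is highest. The differentiated-like column is the highest for 8 genes and the terminally differentiated-like column for Asprv1 and Fam25c. Outside the IFE stages the higher values include Sbsn in sebaceous-like, Dmkn in upper follicle-like and sebaceous-like and Lgals3 in T cell-like and Langerhans-like cells. They also include Lgals7 in Merkel-like and upper follicle-like cells (6709 and 6919 CPM in the latter).

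Of the 5 protein-coding genes on either side, 2 of 10 passed the filter in the IFE fit, Tmem147 and Gapdhs. Tmem147, a membrane protein of the endoplasmic reticulum, was at 158 CPM in basal-like, 248 CPM in transition-like, 229 CPM in differentiated-like and 594 CPM in sebaceous-like cells (means of 2 mice). Tmem147 rose by 0.79 on the log2 scale into transition-like cells (adjusted p = 4.2e-05), was at 0.11 into differentiated-like cells (adjusted p = 0.450), and was at 2.18 in sebaceous-like against melanocyte-like cells. Atp4a, a subunit of a proton pump, was at 18.3 CPM in sebaceous-like and 28.5 CPM in Merkel-like cells, and Ffar2, a fatty acid receptor of leukocytes, at 11.2 CPM in Langerhans-like cells. Gapdhs was near the floor, at 0.739 CPM in basal-like and 2.88 CPM in transition-like cells (means of 2 mice). Of the 2 neighbours tested, 2 were called higher and 0 lower into transition-like cells, where 19.7% and 20.7% of all genes tested were. Into differentiated-like cells the counts were 0 and 0, where 18.7% and 18.5% were called. Into terminally differentiated-like cells they were 0 and 1, where 17.7% and 17.5% were called.

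**Figure D4:**
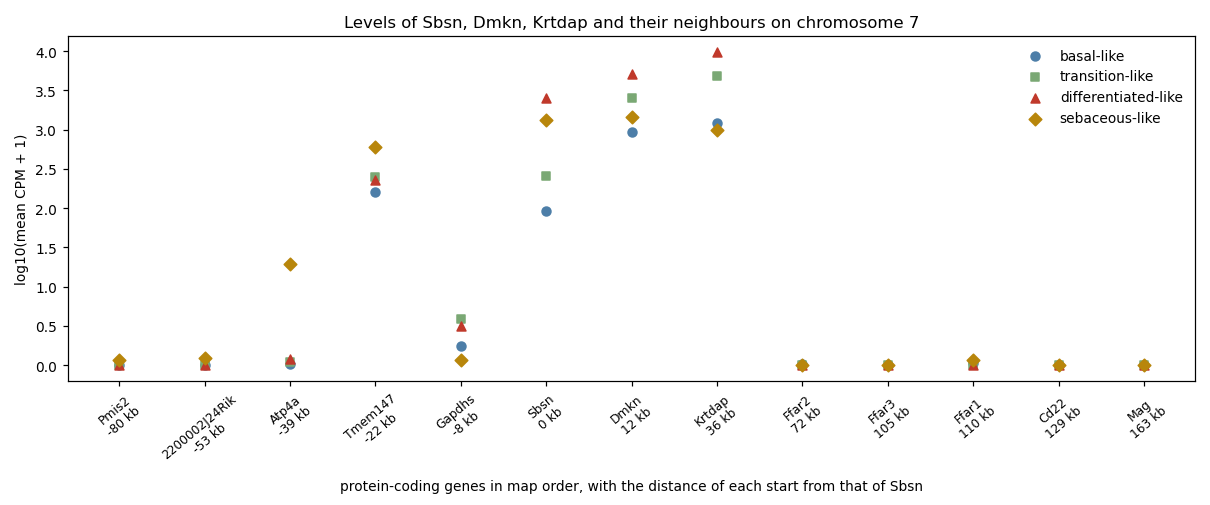
Mean level of the 2 KO mice, as log10(CPM + 1), of Sbsn, Dmkn, Krtdap and the 5 protein-coding genes on either side in map order, in basal, transition, differentiated and sebaceous-like cells, with the distance of each start from that of Sbsn in kb. The 3 members stand above all neighbours in differentiated-like cells, and Tmem147 is the neighbour with the highest levels (229 CPM in differentiated-like and 594 CPM in sebaceous-like cells).

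Across the 30 sums of named classes and mice, Krtdap and Dmkn had the most alike levels of any pair of the trio (Pearson r = 0.952 of log2(CPM + 10)), followed by Sbsn and Dmkn (0.850) and Krtdap and Sbsn (0.777). Calm4 and Fam25c had r = 0.946, and Lgals3 had the lowest values with other members (0.415 to 0.739). Among 3416 genes, those most like Krtdap were Pkp1, a desmosomal plaque protein (0.914), Anxa7 (0.899) and Rab3d (0.893). Those most like Sbsn were Ly6g6c (0.963), Elovl4, which elongates very long fatty acids (0.942), and Ide (0.941). For Dmkn they were Pkp1 (0.941), Perp, a desmosomal membrane protein (0.907), and Car13, a carbonic anhydrase (0.906). These values are descriptions over sums that share 2 libraries. Ly6g6c, Elovl4 and Perp were also markers used to name the classes that were summed.

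Gene lists around the members, which include the members themselves and are not whole families, moved in mixed directions. Over all genes tested, 19.7% were called higher and 20.7% lower into transition-like cells (median log2 fold change -0.01), 18.7% and 18.5% into differentiated-like cells (-0.10) and 17.7% and 17.5% into terminally differentiated-like cells (0.04). The galectin list had 11 genes, Lgals3bp among them, and 8 were tested in the IFE stages. Into transition-like cells 4 rose (Lgals3, Lgals7, Lgals12 and Lgalsl) and 3 fell (Lgals1 at -1.17, Lgals8 at -0.72 and Lgals9 at -1.45), with a median of 0.42. The step into differentiated-like cells had 4 higher and 2 lower (median 0.37, Lgals9 at -4.03), and the one into terminally differentiated-like cells 2 and 3 (median -0.77). Lgals12 was near the floor, at 0.592 CPM in basal-like and 1.68 CPM in transition-like cells (means of 2 mice). So was Lgals9 in differentiated-like cells, at 0.364 CPM. Lgals1 was low in KCs, at 982 CPM in melanocyte-like, 1017 CPM in Langerhans-like and 2784 CPM in T cell-like cells against 18.4 CPM in basal-like cells.

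The calmodulins and calmodulin-like genes had 4 higher and 1 lower of 7 into transition-like cells (median 0.44, Calm5 at 2.11 and Calm2 at -0.78). Into differentiated-like cells they had 6 higher and 1 lower, with Calml3 at 5.78, Calm5 at 2.79 and Calml4 at -1.76. Calml4 was near the floor there, at 0.714 CPM (mean of 2 mice). Into terminally differentiated-like cells 1 was higher and 4 lower (median -1.26). In differentiated-like cells the levels of Calm5 (305 CPM) and Calml3 (167 CPM) stood below that of Calm4 in UMIs, which count molecules and do not grow with transcript length.

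Genes of profilaggrin and its processing, which include Asprv1, rose mostly at the later step. Into transition-like cells 5 of 14 tested rose (median 0.24), among them Casp14, a protease of cornification (3.03), and Klk7, a kallikrein of the cornified layer (1.17). Into differentiated-like cells 13 of 14 rose (median 4.72), with Flg, the profilaggrin gene, at 6.24, Hrnr at 5.58, Klk5 at 5.31 and Spink5, an inhibitor of kallikreins, at 5.16. Tchh was the exception, at 0.08 (adjusted p = 0.727). Into terminally differentiated-like cells 3 rose (Flg2 at 2.17, Asprv1 at 1.24 and Prss8 at 1.19) and 7 fell (median -0.78). Flg, Hrnr, Spink5 and Tchh, and Flg2 and Rptn, were also markers used to name classes. Of the 9 acyl-CoA thioesterases listed, which include Them5, 4 rose into transition-like cells (median 0.33), 3 rose into differentiated-like cells (median 0.31, Acot1 at 1.10 and Acot2 at 0.92) and 4 fell into terminally differentiated-like cells (median -0.83). Acot1 was highest outside the IFE stages, at 482 CPM in upper follicle-like and 371 CPM in sebaceous-like cells.

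The filter on cells also removed barcodes rich in several members. Relative to kept cells of the same mouse, barcodes with under 900 genes and under 10% mitochondrial UMIs held 77.8 and 30.04 times the level of Fam25c, 68.1 and 24.3 times that of Asprv1, 16.5 and 7.95 times that of Calm4 and 7.87 and 6.04 times that of Sbsn, in mouse 1 and mouse 2. Them5 was at 8.09 and 4.05 times, Krtdap at 2.11 and 1.55 times and Lgals7 at 0.636 and 1.06 times the kept level. Loricrin (Lor), the main protein of the cornified envelope, stood at 46845 and 11845 CPM there against 196 and 178 CPM in kept cells. In barcodes with 10% or more mitochondrial UMIs the order differed, with Sbsn at 5.91 and 8.50 times, Asprv1 at 3.39 and 4.99 times, Endou at 3.41 and 4.23 times, Krtdap at 0.981 and 1.22 times and Lgals7 at 0.521 and 0.700 times the kept level. These ratios are to all kept cells, of which 0.618% and 0.513% were terminally differentiated-like. In the barcodes with under 900 genes Asprv1 was at 6712 and 1743 CPM, against 4597 and 2333 CPM in kept terminally differentiated-like cells. Calm4 was at 12068 and 4842 CPM against 4603 and 4542 CPM, and Sbsn at 1842 and 1165 CPM against 1954 and 1325 CPM. Fam25c, like Asprv1, was above that class in mouse 1 only. The levels in the last stages above are therefore those of cells that pass the filter.

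**Figure D5:**
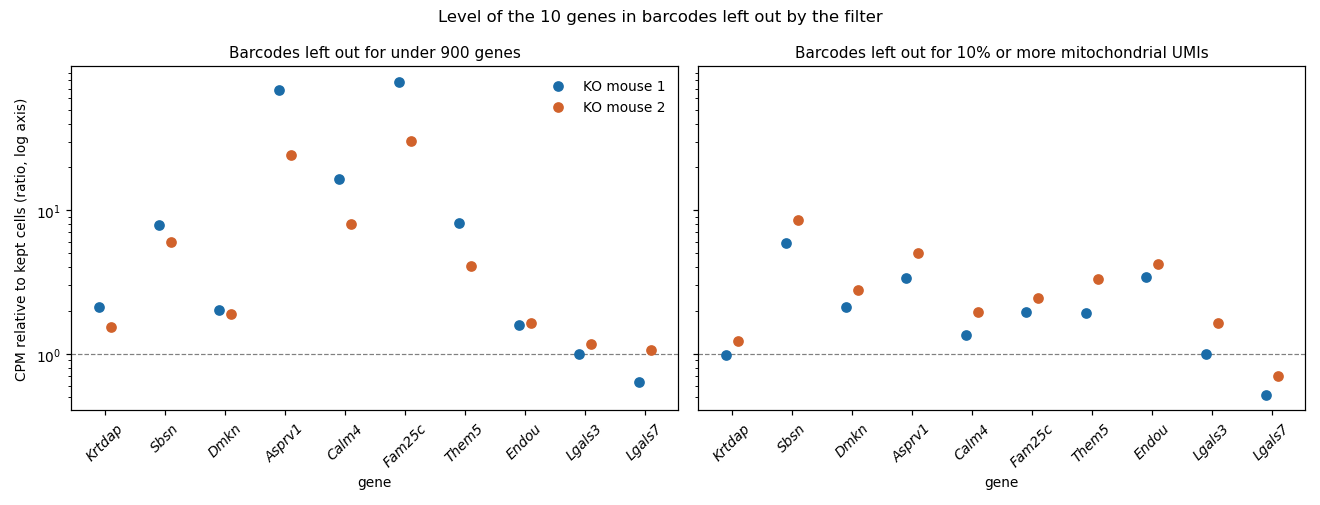
Level of each gene in barcodes left out by the filter relative to kept cells of the same KO mouse (ratio of CPM, log axis, dashed line at 1), for barcodes with under 900 genes (left) and with 10% or more mitochondrial UMIs (right). Fam25c (77.8 and 30.04) and Asprv1 (68.1 and 24.3) are highest on the left, and Sbsn (5.91 and 8.50) on the right.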

How the data were processed

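Epidermal cells of 2 Chrm3 KO mice were profiled on the Chromium platform, with a 3′ chemistry labelled v1 by the submitters and given as a later version in the methods. The authors deposited 1 filtered matrix of raw UMI counts per mouse, made with Cell Ranger 3.0.2 and build mm10 according to the submitters' processing notes, with 10816 and 15867 barcodes and 109756784 and 166441732 UMIs. No authors' cell annotation was used here, so cell types were rebuilt. The members and gene lists were chosen with earlier results of these data known.

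The study's own limits on cells were applied, a gene count from 900 to 7700 with a mitochondrial share below 10%. After log normalization the mice were integrated over 2000 variable genes and 30 dimensions, and Louvain clusters were drawn at resolution 0.8, all in Seurat 5.3.0 under R 4.3.3 and without the 10 members. A cluster was named from its fixed markers when 3 or more were enriched, with a mean log2 enrichment of 0.5 or 2 markers among its leading 10 genes, a limit set after the clusters were seen. The clusters holding 3788 cells stayed unnamed. Doublets were called with Scrublet in scanpy 1.11.5 (expected rate 0.08) and kept in the main sums. Of the genes, 27645 matched GENCODE M21, which gave positions.

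Counts were summed per mouse and class and tested with edgeR 4.0.16 (TMM, filterByExpr, quasi-likelihood F-test, Benjamini-Hochberg over all genes tested, adjusted p under 0.05) in 1 fit of the IFE stages (5 residual degrees of freedom, biological coefficient of variation 0.0902) and 1 fit of the other named classes (10 and 0.0946). The SE printed with a log2 fold change was its absolute value divided by the square root of the F statistic. The statistics step was tested on simulated data. Same-numbered sums come from the same animal, so the mouse number pairs them. Across the 10 pairs of stages the differences between mice correlated at r = 0.0102 to 0.358 (median 0.0733). The block was an alternative, as were DESeq2 1.42.0, its size factors, no filter on low counts, doublets left out, resolutions 0.4 and 1.2, a 5% mitochondrial limit and each mouse left out. Added after seeing the data were the melanocyte-like class without its doublet-rich cluster, the onset without terminally differentiated-like cells and levels without the highest 3 cells. Named genes were all 10 members, the 3 genes most like each of the trio by Pearson r, the list members and the measured neighbours, of which 1 list member is not reported here. Exact Poisson and binomial 95% intervals cover counting error only. Figures were drawn with matplotlib 3.10.9.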

Additional observations from a re-analysis of the deposited data

Results flagged for a closer look

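Barcodes that the filter left out carried the 10 genes, a signal outside the cells compared above. Summed over the 10 genes, barcodes with under 900 genes and under 10% mitochondrial UMIs held 33260.4 CPM in KO mouse 1 (394 barcodes) and 19122 CPM in KO mouse 2 (630 barcodes), against 7903 and 7957 CPM in kept cells. Barcodes with 10% or more mitochondrial UMIs held 8819 CPM in mouse 1 (2777 barcodes) and 11517.5 CPM in mouse 2 (3315 barcodes). With 2 mice, no group was large enough to look for a single sample far from the rest.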

How the results depend on the processing

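Of 62 values, those of every member between the IFE stages and of the members called outside them, 58 of 62 kept their direction and side of the threshold with DESeq2, 62 of 62 without called doublets, 60 of 62 with the mouse as a block and 56 of 62 at resolution 1.2. Members not called outside the IFE stages are not among these 62, and those that gained a call are counted below. For basal dividing against basal, 2468 genes passed, and 4480 did with the block, 3855 at resolution 0.4 and 865 in cells under 5% mitochondrial UMIs, where 2 in place of 4 members were lower. Asprv1, basal dividing against basal, turned from -0.22 to 0.072 at resolution 0.4 (adjusted p = 0.895). Under 5% mitochondrial UMIs, 2647 in place of 4937 genes passed for transition against basal, 4274 in place of 6494 for hair follicle against melanocyte and 800 in place of 2388 for Merkel against melanocyte. In terminally differentiated-like cells 2 in place of 1 member rose without the filter, with the block and at resolution 1.2. In hair follicle-like cells, where 1 member rose and 1 fell, 3 rose without the filter, 2 rose and 2 fell with the block, 2 rose without doublets and at resolution 0.4, 0 fell with DESeq2 and at resolution 1.2, and 2 rose and 0 fell without the doublet-rich melanocyte-like cluster. In inner root sheath-like cells 3 in place of 0 fell without the filter and with the block, and 1 fell under 5% mitochondrial UMIs. In sebaceous-like cells 1 in place of 0 fell without the filter, with the block and at resolution 0.4. In place of 1 member, those that rose without the filter were 7 in Langerhans-like, 4 in T cell-like and 4 in Merkel-like cells. With the block they were 6, 3 and 2. Without doublets, 2 rose in T cell-like and 3 in Merkel-like cells, and without the doublet-rich cluster 4, 2 and 2 rose in the same order of classes. The mouse as a block changed no call of a member other than those named above. Asprv1 in sebaceous-like cells ranged from -0.43 to 3.01 with each mouse left out in turn, which gives values with no test. At an onset limit of 25%, 1 in place of 4 members was late. At resolution 0.4 no differentiated-like class formed, so both of its comparisons gave no value. The share of all genes called is not given for most of these settings, so the counts of members are not read as results about the members. The cause of the changes between settings was not tested. The rarest values rest on few UMIs, such as Them5 in sebaceous-like cells with 2 and 6, and 2 mice limit every p-value.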
